A study of Rattus norvegicus with 66 samples.

Results

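The 9 genes described here act in thyroid hormone signalling: the receptors Thra and Thrb, their partner receptor Rxrg, the deiodinases Dio2 and Dio3, the transporter Slco1c1 and the hormone-responsive genes Klf9, Hr and Nrgn. They were found by gene symbol, with 1 row each, among the 37777 rows of the count files. Expression was measured by RNA-seq in dorsal hippocampus with laterally adjacent cortex from 64 Long Evans rat pups (41 males, 23 females) on postnatal day 6 (PND 6). The dams, not the pups, were dosed. Aroclor 1254 (Aro, a mixture of polychlorinated biphenyls) and bisphenol A (BPA, a plastics monomer) were given in soy-free chow from 2 weeks before mating to PND 6. The Aro0.5 and BPA0.5 groups received 0.5 mg/kg per day (4 males each). The Aro5 group received 5 mg/kg per day (6 males, 5 females), as did the BPA5 group (7 males, 4 females). Chlorpyrifos (CPF, an organophosphate insecticide) was injected subcutaneously in pregnancy and lactation at 1 mg/kg in CPF1 (4 males) and at 3 mg/kg in CPF3 (7 males, 4 females). Feeding controls on soy-free chow (CONF, 4 males, 5 females) and injection controls (CONSC, 5 males, 5 females; the vehicle is saline in the labels and dimethyl sulfoxide in the study's methods) were combined within each sex, giving 9 control males and 10 control females. Females of the low doses were not sequenced in the study. Some pups of a group were littermates.

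Thyroxine reaches the brain through transporters such as Slco1c1 at the blood-brain barrier. The deiodinase Dio2, mostly in astrocytes and tanycytes, converts it to the active hormone T3, and Dio3 inactivates both. T3 binds the nuclear receptors encoded by Thra and Thrb, which usually act as dimers with a retinoid X receptor such as Rxrg. In developing brain Klf9 (a transcription factor), Hr (a corepressor of nuclear receptors) and Nrgn (neurogranin, a postsynaptic calmodulin-binding protein) are known to be raised by T3. Polychlorinated biphenyls are known to lower circulating thyroxine, so the Aro groups were the main question for these genes.

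Library totals ran from 10644138 to 86206550 counts, with a median of 20740650, and levels are given as CPM, the usual unit of counts scaled to a common library total. Without transcript lengths, levels were not compared between genes. Log2 fold changes came from fits that scale libraries further (TMM), so they need not equal the ratio of the mean CPM shown. The library names come in 2 forms, called A and B here, whose meaning the labels do not give. For the exposed females the form could not be read, so whether form differs between exposed and control females is not known. Among males, all libraries of the high-dose groups had form B, and all of the low-dose groups and 9 of the 10 control libraries had form A, so form and high dose cannot be told apart there: a term for form would rest on the form B library of 1 control. Male control N2-2y had a library of each form, with unequal levels in some genes: Nrgn was at 118 CPM in form A and 249 CPM in form B, Hr at 22.2 and 37.3 CPM, Thra at 516 and 735 CPM, and Slco1c1 at 99.8 and 75.5 CPM. Rxrg was at 61.7 and 90.6 CPM and Dio3 at 1.15 and 1.92 CPM. Klf9 was at 23.8 and 21.6 CPM, Thrb at 33.5 and 31.2 CPM and Dio2 at 4.67 and 4.11 CPM, which are close. In that pup 11.6% of 10210 genes with a mean of at least 10 CPM differed more than 1.5-fold between its libraries. In female control N4-3x, the other pup with 2 libraries, 0.165% of 10298 genes did so, although the labels give these libraries different times of dissection. There Nrgn was at 449 and 477 CPM and Klf9 at 29.0 and 30.9 CPM in forms A and B, and the form B minus form A difference of the 9 genes ran from -0.16 (Slco1c1) to 0.24 (Dio3) on the log2 scale. CONSC female 9-1x stood apart in its tissue markers. The summed CPM of 7 striatum markers was 1492 in this pup, the highest of all 64 pups, and 184 to 590 in the other control females. Its hippocampal excitatory neuron markers summed to 139 CPM, against 462 to 633 CPM in those females.

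Promoter sequence (RefSeq, GRCr8) was at hand for 7 of the 9 genes, in 8 windows from 250 bases before to 50 bases after the start site. The last 100 bases before the start of both hormone receptors and of Dio3 are shown because these genes set hormone action and hormone removal. Capitals mark GGGCGG, the core of the GC box that Sp factors bind, and TATAAA, on either strand.
Thra, chr10:84198041-84198140, plus strand: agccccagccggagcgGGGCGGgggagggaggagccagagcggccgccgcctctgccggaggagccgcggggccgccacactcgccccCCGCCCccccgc
Thrb, chr15:10461447-10461546, minus strand: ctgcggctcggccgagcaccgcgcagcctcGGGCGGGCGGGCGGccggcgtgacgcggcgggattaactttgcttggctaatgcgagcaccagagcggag
Dio3, chr6:135106972-135107071, plus strand: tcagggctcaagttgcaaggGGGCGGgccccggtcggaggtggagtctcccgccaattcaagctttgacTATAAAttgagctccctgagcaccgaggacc

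GGGCGG was present in 4 of the 8 windows (Thra, Thrb, Dio3, Nrgn), against 33.1% of all 33469 rat promoter windows, and TATAAA in 2 (Dio2, Dio3), against 14.2%. The AGGTCA hexamer that thyroid hormone receptors bind was in 0 of the 8 windows, against 16.2% of all windows. Its direct repeat with a spacer of 4 bases (the DR4 element) was in 0 of 8 and in 0.006% of all windows. Both strands were searched, within the windows only. With the DR4 element this rare, 0 of 8 windows says little about these genes.

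No gene of the 9 passed an adjusted p of 0.05 (edgeR quasi-likelihood test, Benjamini-Hochberg over all genes) for any of the 3 agents, at either dose, in either sex. Of all genes 0.124% passed for Aro0.5 males, 0.195% for Aro5 males and 0% for Aro5 females, against controls of the same sex. In number these were 20 and 32 genes in the males, and they depended on the setting: Aro0.5 gave 0 without Aro0.5 94-3y, 322 without CONSC 8-4y and 244 with DESeq2, and Aro5 males gave 176 without 108-1y and 818 within the time window given in the methods. At an unadjusted p of 0.05, 2 of the 9 passed for Aro0.5 males (Dio3, Rxrg), where 18.5% of all genes did, and 2 for Aro5 males (Thrb, Klf9), where 11.8% did. In Aro5 females 0 did, where 3.23% of genes did. In Aro0.5 males 6 of the 9 log2 fold changes were below 0, with a median of -0.27 against 0.003 over all genes. In Aro5 males 9 of the 9 were above 0, with a median of 0.24 against -0.002. Of all genes 50.5% were above 0 for Aro0.5 males and 49.5% for Aro5 males. Some of the 9 also rose and fell together over pups, as Hr with Nrgn (r = 0.770), so their directions are not separate results. These Aro groups share their control males, so the 2 sets of values are not independent.

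**Figure D1:**
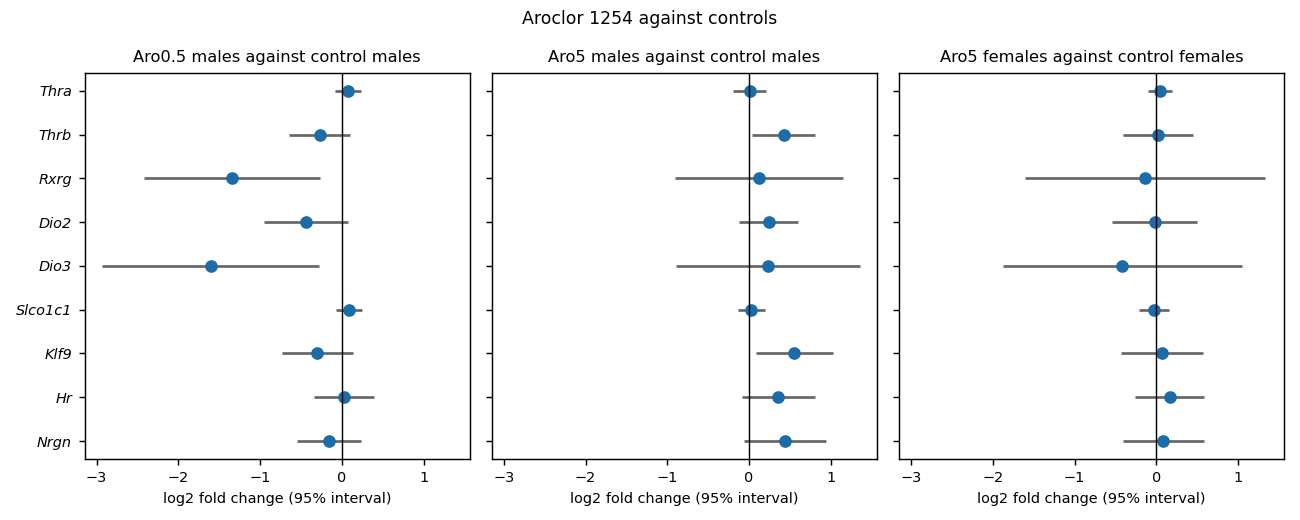
Log2 fold change of each of the 9 genes against controls of the same sex (points, x axis) with the 95% interval of the fit (lines), for Aro0.5 males, Aro5 males and Aro5 females. Dio3 and Rxrg lie lowest in Aro0.5 males, at -1.60 and -1.35, and all 9 points lie at or above 0 in Aro5 males, though no adjusted p was under 0.05. Of all genes 49.5% were above 0 in Aro5 males.

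Thra, the main hormone receptor of the developing brain, was at 699, 707, 713 and 729 CPM in the Aro0.5 males. All 4 lay within the control males, which ran from 624.6 to 770 CPM with a median of 723. In Aro5 males it ran from 535 to 834 CPM with a median of 746, so that 2 pups lay above and 2 below every control. The 2 below, 120-1y and 120-2y, were littermates. The log2 fold changes were 0.07 (SE 0.08) and 0.01.

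Thrb, the receptor that rises later in brain development, was at 17.7, 17.9, 18.9 and 24.0 CPM in the Aro0.5 males and ran from 17.6 to 32.3 CPM, median 26.3, in the control males. The Aro0.5 pups lay within the control range, 3 of them near its lower end. In Aro5 males Thrb ran from 26.4 to 43.8 CPM with a median of 31.0, and 3 of the 6 were above every control. Among these 3, 120-1y and 120-2y were littermates. The log2 fold change was -0.27 (SE 0.18, adjusted p = 0.408) for Aro0.5 and 0.42 (SE 0.19, adjusted p = 0.366) for Aro5 by edgeR.

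Over the 13 groups the mean of Thrb was highest in Aro5 males and lowest in Aro0.5 males, at 32.9 and 19.6 CPM. The log2 ratio of Thra to Thrb was 0.34 higher in Aro0.5 males than in controls (two-sided exact permutation test, p = 0.0699) and 0.43 lower in Aro5 males (difference -0.43, exact permutation p = 0.0685). Both had an adjusted p of 0.629 over the 18 ratio comparisons, and 0 of the 18 passed. The test counted each of the 6 Aro5 males as 1 unit, though they came from 5 litters.

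Rxrg, the retinoid X receptor with the most restricted brain pattern and known for its striatal expression, was at 8.81, 10.9, 17.0 and 34.4 CPM in the Aro0.5 males. CONF males were at 23.9, 47.8, 54.1 and 76.7 CPM and CONSC males at 7.64, 26.6, 38.1, 56.7 and 87.4 CPM. The groups overlapped, since 1 CONSC male was below every Aro0.5 male. The log2 fold change was -1.35 (95% interval -2.42 to -0.27, adjusted p = 0.197, edgeR). Over 19 settings it ran from -1.85 to -1.14, and the smallest adjusted p, 0.0844, was without CONSC 8-4y. In Aro5 males Rxrg ran from 6.91 to 93.2 CPM with a median of 52.0 and a log2 fold change of 0.12.

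No marker of the striatum, thalamus, neocortex or choroid plexus lists passed an adjusted p of 0.05 in Aro0.5 males. An unadjusted p under 0.05, which 18.5% of all genes had there, was found for 6 of 7 striatum markers, with a median log2 fold change of -0.92, and their summed level was 117 to 378 CPM against 133 to 746 CPM in the control males. It was found for 4 of 6 thalamus markers, with a median of 0.62 and sums of 665 to 1126 CPM against 408 to 1176 CPM. It was also found for 3 of 6 neocortex layer markers, with a median of -0.65 and sums of 172 to 326 CPM against 209 to 517 CPM. Of the choroid plexus markers 4 of 5 tested had one, with a median of -0.52. Their part in the result was not tested. In bulk tissue, fewer cells of a type and less RNA per cell cannot be told apart.

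Across all 64 pups, with group means subtracted, Rxrg followed the summed striatum markers with Pearson's r = 0.966 and Spearman's rho = 0.967. Each had a permutation p of 1e-05, the smallest that 100000 permutations can give, and an adjusted p of 5.8e-05 over 81 gene-by-list relations, of which 34 passed. Without the 2 pups farthest from the median r was 0.960. It was 0.983 in 24 pups of form A, 0.9496 in 25 of form B and 0.965 in the 13 exposed females, whose form could not be read. The 13 pups with the most Rxrg had striatum sums of 595 to 1492 CPM and the 13 with the least had sums of 92.2 to 198 CPM.

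**Figure D2:**
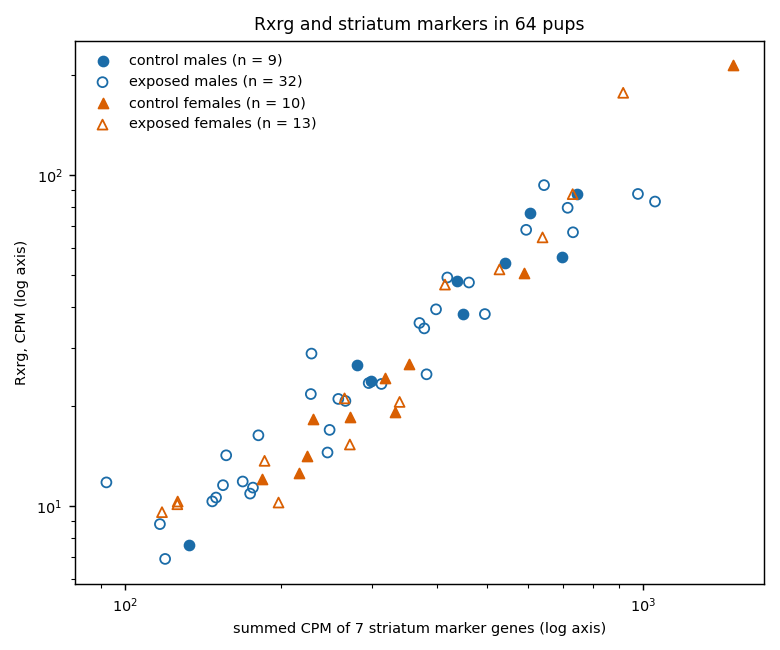
Rxrg (CPM, log axis) against the summed CPM of 7 striatum markers (log axis), 1 point per pup, 64 pups. The points rise together, and CONSC female 9-1x, with 215 CPM of Rxrg and a sum of 1492 CPM, is at the top right.

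The genes most like Rxrg over the pups, by Pearson's r among 17367 genes, were Rarb (0.973), Asb2 (0.965) and Ppp1r1b (0.959), a striatum marker of the list. Rarb encodes a retinoic acid receptor that pairs with retinoid X receptors and is known to be switched on by retinoic acid through a direct repeat in its own promoter. That element, searched on both strands, was in 0.009% of all promoter windows, a window of Rarb among them, and in 0 of the 8 windows of the 9 genes. It is printed from Rarb with the 2 repeated units in capitals.
Rarb, chr15:11336410-11336438, plus strand: gggaagGGTTCAccgaaAGTTCActcgca

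Dio2, which makes T3 in the brain, was at 1.34, 3.00, 3.41 and 4.06 CPM in the Aro0.5 males and ran from 2.80 to 5.43 CPM, median 4.38, in the control males. In Aro5 males it ran from 3.33 to 5.63 CPM with a median of 5.18. In the low dose 1 of 4 pups was below every control, and in the high dose 1 of 6 was above. The log2 fold changes were -0.44 (SE 0.25, adjusted p = 0.339, edgeR) and 0.24 (SE 0.18).

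Dio3, which inactivates the hormone and is preferentially expressed from the paternal allele of an imprinted cluster, was the lowest of these counts, with 0 to 128 per pup, so its values are the least precise. The Aro0.5 males were at 0.0937, 0.266, 0.286 and 0.324 CPM, from 3 to 8 counts each. CONF males were at 0.265, 0.571, 1.06 and 1.55 CPM and CONSC males at 0.091, 0.166, 0.417, 0.742 and 1.52 CPM. All Aro0.5 pups were within the control range and below its median of 0.571 CPM. The log2 fold change was -1.60 (95% interval -2.93 to -0.28, adjusted p = 0.204, edgeR), and the smallest adjusted p over 19 settings was 0.121. In Aro5 males Dio3 ran from 0.198 to 1.90 CPM, with a log2 fold change of 0.23 (SE 0.55).

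Dio3 was close to Calcr (r = 0.888) and to Dlk1 (r = 0.855), a gene of the same imprinted cluster. It rose and fell with the striatum markers (r = 0.714) and with Rxrg (r = 0.747) and against the hippocampal excitatory neuron markers (r = -0.720), while Dio2 went with the hippocampal markers (r = 0.676). Dio2 and Dio3 had r = -0.572. All of these are over 64 pups with group means subtracted, and libraries, depth and tissue makeup are shared between the genes.

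Slco1c1, the thyroxine transporter of brain capillaries and astrocytes, had a mean of 94.1 ± 1.87 CPM (SD, n = 4) in Aro0.5 males against 93.0 ± 6.41 CPM (SD, n = 9) in control males. Aro5 males had 93.5 ± 13.2 CPM (SD, n = 6). The log2 fold changes were 0.09 and 0.03. Its lowest group mean was in CPF3 females, at 67.3 CPM, where the log2 fold change was -0.29 (SE 0.10, unadjusted p = 0.00773, adjusted p = 0.465, edgeR). These females were at 46.1 (43-3x), 68.0, 73.3 and 81.7 CPM, and the control females at 71.5 to 101 CPM.

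Klf9, a direct target of T3, was at 8.87, 12.1, 13.7 and 18.4 CPM in the Aro0.5 males and ran from 12.0 to 23.01 CPM, median 16.5, in the control males. In Aro5 males it ran from 13.4 to 40.2 CPM with a median of 24.7, and 4 of the 6 were above every control. The log2 fold change was -0.30 (SE 0.21) at the low and 0.55 (SE 0.23, adjusted p = 0.328, edgeR) at the high dose. For Aro5 it was 0.92 (adjusted p = 0.0611, edgeR) among pups dissected within the time window the methods give, 10.30 to 13.20 h. That window left out 2 of the 6 Aro5 males, at 13.4 and 18.8 CPM. It also left out 3 CONSC males, at 18.1, 19.3 and 23.01 CPM. Aro5 males 120-1y and 120-2y, which stayed, were littermates, and 818 of all genes passed in this setting.

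Hr was at 19.1, 28.3, 31.5 and 42.8 CPM in the Aro0.5 males, and ran from 22.01 to 40.2 CPM in the control males and from 21.2 to 52.1 CPM in the Aro5 males. Of the Aro5 males 4 were above and 1 below every control. The log2 fold changes were 0.03 (SE 0.18) and 0.36 (SE 0.22, adjusted p = 0.544, edgeR).

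Nrgn was at 137, 174, 192 and 220 CPM in the Aro0.5 males, and ran from 177 to 295 CPM in the control males and from 159 to 427 CPM in the Aro5 males. The log2 fold changes were -0.16 (SE 0.19) and 0.44 (SE 0.24, adjusted p = 0.493, edgeR). Its lowest group was BPA0.5, at 93.0, 128, 153 and 179 CPM. There the log2 fold change was -0.59 (SE 0.19, unadjusted p = 0.00614, adjusted p = 0.436, edgeR).

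In Aro5 males 0 of 6 neocortex layer markers passed an adjusted p of 0.05 (edgeR; the smallest was 0.143, for Rorb). An unadjusted p under 0.05 was found for 4 of the 6, against 11.8% of all genes, with a median log2 fold change of 0.64, and their sums were 398 to 663 CPM against 209 to 517 CPM in control males. Over all pups the neocortex sums went with Thrb (r = 0.703), Hr (r = 0.687), Dio2 (r = 0.596) and Nrgn (r = 0.593). The part of neocortex in the Aro5 values was not tested.

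**Figure D3:**
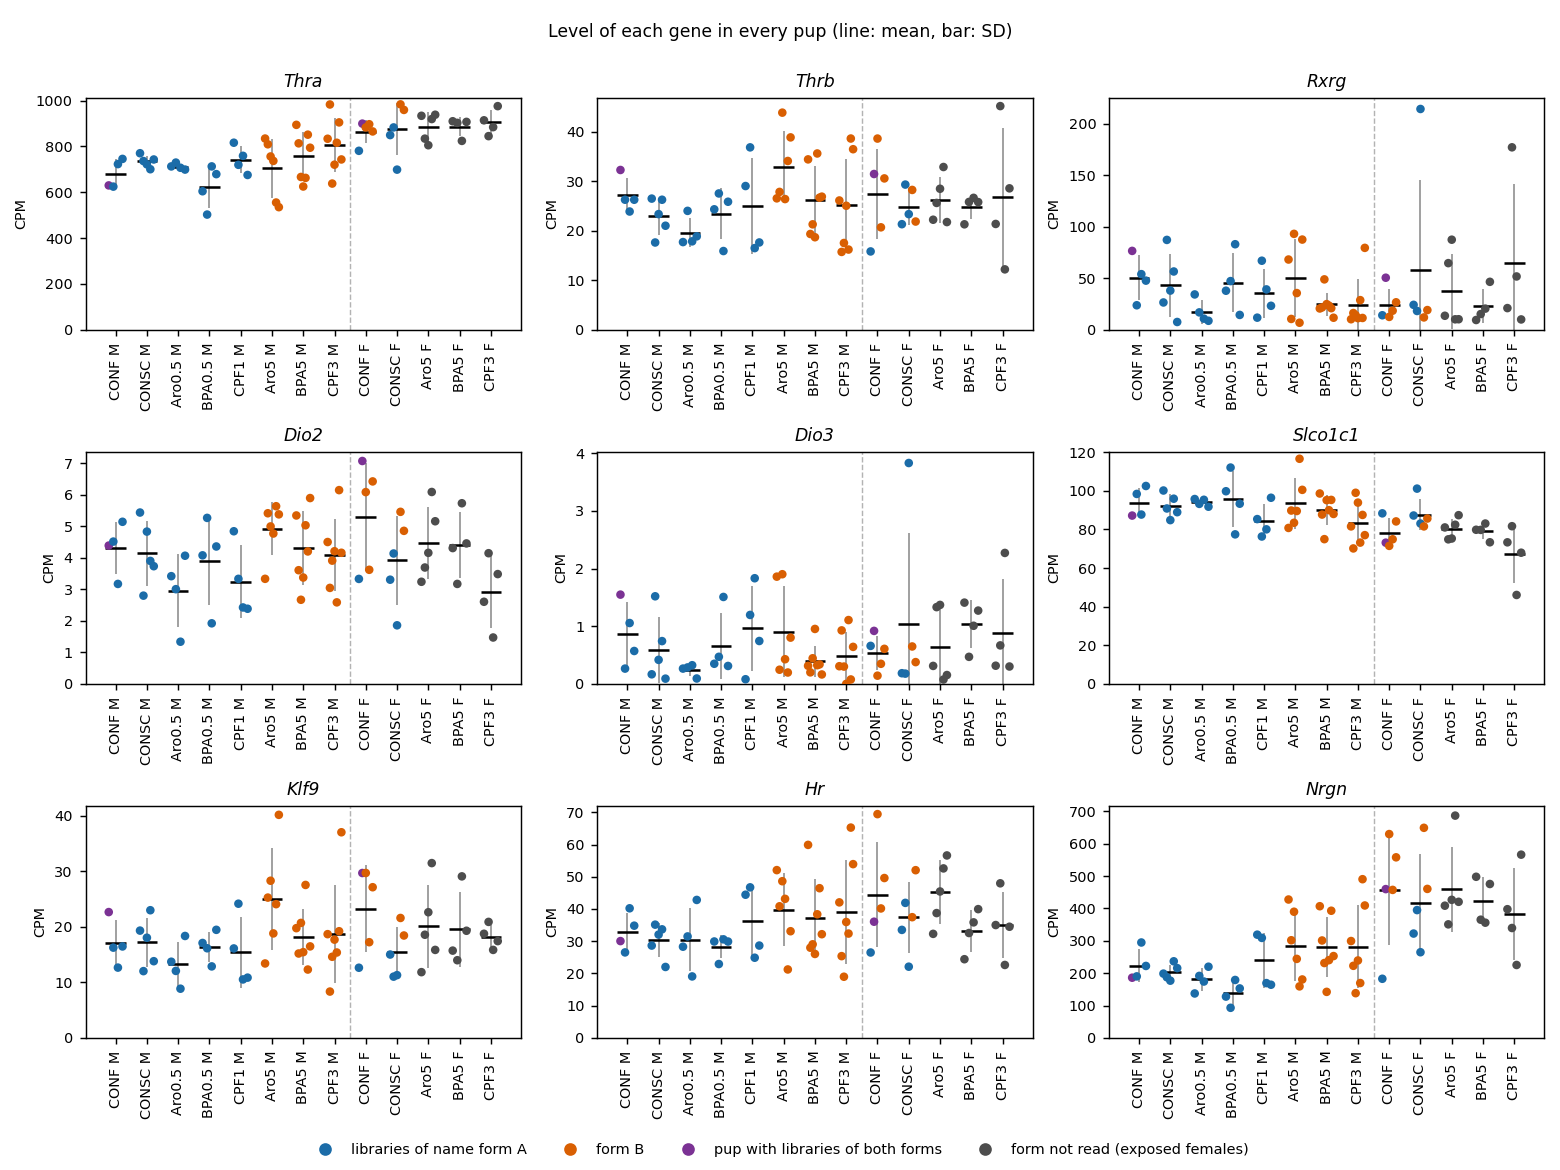
CPM of each of the 9 genes in the 13 groups, 1 point per pup, with the mean and SD (bars, cut at 0). The lowest Thra group mean of females is 865 CPM and the highest of males 805 CPM. Nrgn is at most 179 CPM in BPA0.5 males and 183 CPM in the lowest female, CONF female N2-4x. The share of all genes without overlap there was not counted.

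In Aro5 females none of the 9 genes passed, and for Rxrg and Dio3 the direction turned without 1 control pup. Klf9 was at 11.9, 15.9, 18.6, 22.7 and 31.5 CPM, with control females at 11.0 to 29.7 CPM, so that 1 of the 5 was above every control, and a log2 fold change of 0.07. Of the 5, 1 was above every control in Nrgn, 2 were below in Rxrg and 1 below in Dio3. The values were 0.02 for Thrb, 0.16 for Hr, 0.09 for Nrgn, -0.41 for Dio3 and -0.14 for Rxrg, all with an adjusted p of 0.999 (edgeR). Without control female 9-1x, Rxrg was 0.75 and Dio3 0.38. The difference between the sexes in the Aro5 effect was below 0 for 8 of the 9 genes, as -0.50 for Klf9 and -0.41 for Thrb, and 0 of 9 passed its test, against 0.0984% of genes. Of all genes 48.4% were above 0 in this difference.

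For BPA and CPF the adjusted background was 0.0434% in BPA0.5, 0% in CPF1, 0.189% in BPA5 males, 0.159% in CPF3 males and 0% in BPA5 and CPF3 females. At an unadjusted p of 0.05, 1 of the 9 passed in BPA0.5 (Nrgn), where 8.58% of genes did, and 2 in CPF3 females (Slco1c1, Dio2), where 8.79% did. In the other groups 0 did, with backgrounds of 2.00% in CPF1, 9.10% in BPA5 males, 12.6% in CPF3 males and 4.08% in BPA5 females. The sex differences in the BPA5 and CPF3 effects had 0 of the 9 called, against 0.0405% and 0.0463%. They had 0 at an unadjusted p of 0.05 as well, against 8.92% for Aro5, 2.79% for BPA5 and 5.60% for CPF3. CONF and CONSC differed in 0 of the 9, against 0.0130% of genes in males and 0% in females. At an unadjusted p of 0.05 they differed in 0 of the 9 in males, where 0.988% of genes did, and in Klf9 alone in females, where 4.29% did.

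The other genes of the pathway gave no call either. For Aro0.5 and Aro5 males, 0 of 6 other transporters, 0 of 9 receptor partners and coregulators, 0 of 3 tested enzymes and binding proteins and 0 of 9 tested genes known to be raised by thyroid hormone passed in either direction. At an unadjusted p of 0.05 the counts for Aro0.5 were 4, 0, 1 and 2 in that order, against 18.5% of all genes, led by the amino acid and thyroid hormone transporter Slc7a5 (log2 fold change 0.23, adjusted p = 0.123, edgeR) and the neurofilament Nefm (0.47, adjusted p = 0.124). For Aro5 males they were 0, 4, 0 and 0, against 11.8% of all genes, led by the corepressor Ncor1 (0.28, adjusted p = 0.251, edgeR) and the coactivator Ncoa2 (0.55, adjusted p = 0.260).

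Between the sexes 2 of the 9 genes passed. Nrgn was higher in control females, at 438 ± 152 CPM (SD, n = 10), than in control males, at 212 ± 36.7 CPM (SD, n = 9), which is 1.09 higher on the log2 scale (SE 0.18, adjusted p = 8.71e-05, edgeR). Thra was at 870 ± 82.0 and 710 ± 50.9 CPM, which is 0.33 higher on that scale (SE 0.06, adjusted p = 0.000209, edgeR). The background was high, with 30.9% of genes called. Hr gave 0.42 (adjusted p = 0.0589). Over all groups 22 of 23 females were above the male median for Nrgn (220 CPM) and 22 of 23 for Thra, and 1 of 23 for Slco1c1. In the rest of the 9 the count ran from 8 (Rxrg) to 19 (Hr). Of the 41 males, 27 were above the lowest female for Nrgn and 29 for Thra. The share of all genes divided in this way was not counted, and the low-dose groups were male only.

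Control libraries differed in form between the sexes. With form A libraries alone, 1847 genes passed, Nrgn was 0.68 (adjusted p = 0.0292, edgeR) and Thra was 0.26 (adjusted p = 0.0734). Without 9-1x, 5692 genes and 4 of the 9 passed, the added ones being Hr (0.49, adjusted p = 0.0109) and Rxrg (-1.04, adjusted p = 0.0153). Between Aro5 females and Aro5 males Thra was 0.35 (adjusted p = 0.00992) and Nrgn 0.71 (adjusted p = 0.0542), with 30.3% of genes called. In BPA5 and CPF3 pups 0 of the 9 passed, where 5.55% and 12.3% of genes did, with Thra at 0.26 and 0.20 and Nrgn at 0.63 and 0.48. At an unadjusted p of 0.05 the sexes differed in 4 of the 9 in controls, 3 in Aro5, 2 in BPA5 and 1 in CPF3 pups, against 40.8%, 41.0%, 20.5% and 28.3% of genes. Beside these values, 2 of 6 tested hippocampal excitatory neuron markers and 1 of 6 neocortex markers were higher in control females. Of all genes 30.9% were called there in either direction, and the part of these markers was not tested.

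Name form was compared within control females having 1 library each, 4 of form A (1 CONF, 3 CONSC) and 5 of form B (3 CONF, 2 CONSC), a comparison chosen after seeing the data. Klf9 was at 12.5 ± 1.82 CPM (SD, n = 4) in form A and 22.8 ± 5.43 CPM (SD, n = 5) in form B, and Nrgn at 291 ± 89.8 and 551 ± 90.6 CPM. The forms did not overlap in either gene, but the share of all genes without overlap was not counted. Within a pup the form B minus form A difference of Klf9 was 0.09 in N4-3x and -0.14 in N2-2y on the log2 scale. That of Nrgn was 0.09 and 1.08. With 1 library of each form per pup, these differences were not tested. Between the forms Klf9 and Nrgn passed, with log2 fold changes of 0.91 (SE 0.17, adjusted p = 0.0252, edgeR) and 0.95 (SE 0.20, adjusted p = 0.0311), against 3.60% of genes called. Unadjusted, 6 of the 9 passed a p of 0.05, against 22.9%. Without single form A libraries 0 to 2 of the 9 passed, with 0 without N2-4x. Rxrg gave -1.87 with 9-1x, a form A library, and -0.04 without it, and Dio3 -1.47 and 0.33. Dio2 gave 0.78 (adjusted p = 0.0856) and Hr 0.72 (adjusted p = 0.0818). Neocortex sums were 134 to 516 CPM in form A and 334 to 713 CPM in form B, and their part was not tested.

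The form of the Aro5 female libraries could not be read, so which controls match them is not known. Set against control libraries of form A, Aro5 females had 0.39 for Klf9, 0.55 for Nrgn and 0.53 for Hr. Set against form B the values were -0.27, -0.23 and -0.07, so the direction for these 3 genes turned with the form of the controls. No gene of the 9 passed either way, while 119 genes passed against form A.

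**Figure D4:**
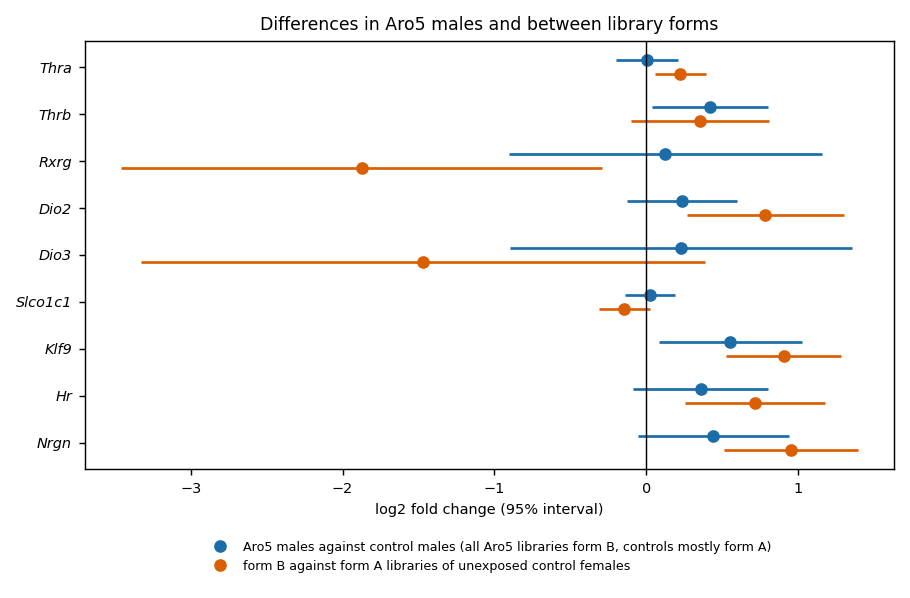
Log2 fold changes of the 9 genes (x axis) for form B against form A in control females and for Aro5 against controls in males, with 95% intervals. Klf9 is at 0.91 for form and 0.55 for Aro5 males, and Nrgn at 0.95 and 0.44. Form B minus form A within a pup, not plotted, was 0.09 for both genes in N4-3x. In N2-2y it was -0.14 for Klf9 and 1.08 for Nrgn.

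From the highest to the lowest of the 13 group means the ratio was 4.31 for Dio3, 3.66 for Rxrg and 3.32 for Nrgn, and 1.45 for Thra. Neighbours in that order differed by less than the larger SD of the pair, except 1 of 12 pairs for Nrgn. Klf9 had its highest mean in Aro5 males (25.0 CPM) and its lowest in Aro0.5 males (13.3 CPM), and Nrgn ran from 458 CPM in Aro5 females to 138 CPM in BPA0.5 males. Among the 9, the closest pairs over pups were Hr with Nrgn (r = 0.770), Nrgn with Thra (0.716), Dio2 with Thrb (0.688) and Klf9 with Thrb (0.669), while Thra and Thrb had r = 0.011. The gene most like each was Ankrd13b for Thra (0.926), Sorl1 for Thrb (0.872), Trak2 for Dio2 (0.836), Ap3m1 for Slco1c1 (0.810), Adcy1 for Klf9 (0.874), Sema7a for Hr (0.911) and Camk2b for Nrgn (0.891).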

How the data were processed

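Polyadenylated RNA of PND 6 dorsal hippocampus was sequenced from stranded libraries. Per the labels and methods, the authors aligned reads to Rnor_6.0 with STAR and counted them with featureCounts; versions, strand setting and treatment of multimapping reads are not given in the sources used here. The deposited values are raw counts per gene. The 2 libraries of a pup were summed. Totals ran from 10644138 to 86206550 counts. CONF and CONSC were combined within sex. Each exposure was compared with controls of its sex by edgeR 4.0.16 (TMM, filterByExpr, quasi-likelihood test), with Benjamini-Hochberg adjustment over all genes tested. Ratios, with 0.5 counts added, were compared by two-sided exact permutation tests. Correlations used log2 CPM with group means subtracted. DESeq2 1.42.0, other scalings and filters, name form, time of dissection, control route, litter (limma 3.58.1, voom) and single pups left out were tried as alternatives. The scripts were tested on simulated data. The genes named are the 9 members, list genes with the smallest p and the genes with the highest r. Members and lists were chosen with earlier results of these data known. P-values measure the spread between pups, some of which were littermates. Promoters came from RefSeq, GRCr8, whose coordinates are not those of Rnor_6.0.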

Additional observations from a re-analysis of the deposited data

Results flagged for a closer look

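In 13 of 117 checks of a gene in a group, 1 pup lay far from the others of its group (Dixon's test), in 11 pups; chance flags about 1 in 20 groups. CONSC female 9-1x was high in Rxrg (215 CPM) and Dio3 (3.83 CPM). CPF3 male 45-1y was high in Klf9 (37.1 CPM) and Rxrg (79.6 CPM). Thra was far from the rest in CONF female N2-4x (781 CPM) and BPA5 female 85-4x (824 CPM), and Thrb in BPA5 female 79-4x (21.3 CPM). Dio3 was so in BPA0.5 male 73-4y (1.51 CPM) and BPA5 male 86-9y (0.953 CPM), Slco1c1 in CONSC female 13-8x (101 CPM), Hr in BPA0.5 male 72-4y (22.9 CPM), Nrgn in Aro5 female 117-6x (686 CPM) and Rxrg in BPA5 male 81-1y (49.0 CPM).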

How the results depend on the processing

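None of the 9 genes passed in any exposure comparison under the alternatives run, and no value of the report that had passed its test changed direction; the counts of all genes called moved more, and the cause was not tested. With DESeq2 the counts were 244 for Aro0.5, 37 for BPA0.5, 103, 73 and 90 for Aro5, BPA5 and CPF3 males, 1 and 3 for BPA5 and CPF3 females, and 15 and 13 for the sex difference in BPA5 and CPF3, with 3 of the 9 genes between control sexes; DESeq2's size factors in edgeR gave 11 for BPA0.5. Within the time window they were 0 for Aro0.5, 1 for BPA0.5, 818 for Aro5 males, 8 for BPA5 males, and 609, 0 and 1 for the sex differences in Aro5, BPA5 and CPF3. With controls of the same route they were 1, 2, 17 and 14 for Aro0.5, BPA0.5, Aro5 and BPA5 males. With form A libraries they were 13 for Aro0.5, 1 for BPA0.5 and 1847 between control sexes, with 1 of the 9 genes. With form as a covariate they were 0 for Aro5, BPA5 and CPF3 males, a fit that says little, since its form term rests on the form B library of control N2-2y alone; against form A controls they were 119, 43 and 110 for Aro5, BPA5 and CPF3 females. Without the filter, the sex differences gave 11 for Aro5 and 5 for CPF3.

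With litter as a replicate block the sex difference in BPA5 gave 11 genes; between control sexes Nrgn was 1.02 (adjusted p = 0.000789, limma) and Thra 0.32 (adjusted p = 0.000855). Pups of a litter had a mean correlation of -0.00610, and -0.170 among controls. Leaving out 1 pup at a time gave 0 to 322 genes for Aro0.5 (0 without Aro0.5 94-3y, 322 without CONSC 8-4y), 0 to 31 for BPA0.5 (0 without 73-4y, 31 without 75-1y), 25 to 176 for Aro5 males (176 without 108-1y), 25 to 39 for BPA5 males, 17 to 41 for CPF3 males, 0 to 1 for CPF3 females and 0 to 2 for CONF against CONSC males, with 167 to 482 genes and 0 to 2 of the 9 genes for form. The values within exposed pups between the sexes, against controls of form A or B, and without 9-1x between control sexes were chosen after seeing the data. A fit with 1 pup per litter was not run for the low doses, where no litter repeats.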
